A study of Arabidopsis thaliana with 9 samples.

Results

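The transcripts described here are those encoded in the chloroplast and mitochondrial genomes of Arabidopsis thaliana. A probe set, the group of array probes read as 1 transcript, was taken where its annotation named exactly 1 gene and that gene lies in an organelle genome. This gave 90 of the 28501 probe sets on the array, for 81 genes. The plastid genome contributed 63 probe sets for 63 genes, of 78 protein-coding plastid genes in RefSeq. The mitochondrial genome contributed 27 probe sets for 18 genes of 32, because nad1 had 7 probe sets, nad2 had 3 and nad5 had 2.

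The arrays carried RNA from aerial parts of 10-day-old seedlings, all in the Col-0 background and grown on 0.5 MS plates. The groups were ssrp1-2 mutants, spt16-1 mutants and wild type, with 3 arrays each, labelled as biological replicates. The genes SSRP1 and SPT16 encode FACT, a heterodimer that moves histones on nuclear chromatin while it is transcribed. Neither gene had a named probe set, so the mutated genes could not serve to check the genotypes. Each array held RNA of several plants pooled to 100 mg of tissue. Whether pools were grown on different plates or sown apart is not stated. The p-values below rest on how far pools of the same genotype differ, taken over the 3 genotypes. The moderated test also draws each probe set's spread toward a value estimated from all probe sets. Because a pool mixes all aerial cells, fewer cells of a type, fewer organelles per cell and less RNA per organelle cannot be told apart.

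Chloroplasts and mitochondria keep small genomes of their own, which carry no nucleosomes. In the chloroplast, a bacterial-type RNA polymerase whose core subunits are the products of rpoA, rpoB, rpoC1 and rpoC2 transcribes the photosynthesis genes. Phage-type polymerases encoded in the nucleus transcribe the rpoB operon, accD and all mitochondrial genes. Nuclear genes also supply the sigma factors, most photosystem subunits and nearly all proteins for organelle RNA splicing and editing, so organelle transcripts depend on the nuclear genome without being packaged in its chromatin.

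The members covered photosystem II (13 probe sets), the plastid ribosome (13), the chloroplast NADH dehydrogenase-like (NDH) complex (10), photosystem I with its assembly factors ycf3 and ycf4 (7), the cytochrome b6f complex (6), the chloroplast ATP synthase (4), the plastid RNA polymerase (4), Rubisco (1) and 5 other plastid genes. On the mitochondrial side they covered respiratory complex I (17), cytochrome c maturation (4), complex IV (2), the ATP synthase gene atp1 (1), the ribosomal gene rpl2 (1), and matR and orfX. A further 17 probe sets named several plastid genes, among them the inverted-repeat genes, and 1 named several mitochondrial genes. Another 28 named an organelle gene together with a nuclear gene or with one not matched to RefSeq. All of these are no members, and 0 of them passed the test in any comparison. In this species a copy of the mitochondrial genome lies on nuclear chromosome 2, and the annotation does not show whether probes of the mitochondrial members also match that copy.

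Organelle transcripts were among the brightest on the arrays. The values are log2 expression, and the highest value in the table was 14.06. Mean levels of plastid members ran between 10.76 and 13.98, with a median of 13.12, and 37 of the 63 lay above 13. Only 88 probe sets of the whole array lay above 13, so plastid members made up 42% of them. The authors' normalization gives all arrays the same overall distribution, so a shift shared by transcripts that fill so much of its upper end would be reduced by that step. Whether signals near the top of the scale were compressed was not tested. Mitochondrial members spread more widely, between 4.61 and 12.92 with a median of 11.17.

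None of the 90 members passed the test in either mutant. A probe set passed when its Benjamini-Hochberg adjusted p from limma, taken over all 28501 probe sets, was under 0.05. Between ssrp1-2 and wild type 2.58% of all probe sets passed, and 0 of 63 plastid and 0 of 27 mitochondrial members did. Between spt16-1 and wild type 2.02% of all probe sets passed, and again 0 of 63 and 0 of 27. Between ssrp1-2 and spt16-1 the background was 0.835%, with 0 of 63 and 0 of 27. At an unadjusted p under 0.05, which 14.4%, 12.6% and 12% of all probe sets met in these 3 comparisons (6.38%, 6.27% and 5.52% on the lower side), there were 0, 1 and 0 plastid members and 3, 1 and 2 mitochondrial members, all of them lower in the genotype named first.

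The typical difference was small on the log2 scale. The median over plastid members was -0.0193 in ssrp1-2 and -0.000907 in spt16-1, each against wild type, beside -0.000408 and -0.00535 over all probe sets. The median over mitochondrial members was -0.0662 in ssrp1-2 and 0.00754 in spt16-1. In ssrp1-2 46 of 63 plastid members (73%) and 24 of 27 mitochondrial members (88.9%) had a difference below 0, against 50.2% of all probe sets. In spt16-1 the counts were 32 of 63 and 13 of 27, against 51.5%. Single arrays moved these values. With each array left out in turn, the plastid median of ssrp1-2 ran between -0.0334 without wild-type replicate 1 and -0.0022 without wild-type replicate 2, and its count below 0 between 57 and 38. The plastid median of spt16-1 ran between -0.0316 and 0.00807 without the same wild-type arrays, and its count between 48 and 19. The mitochondrial median of ssrp1-2 stayed between -0.0963 and -0.044 and its count between 22 and 24. That of spt16-1 ran between -0.0393 without spt16-1 replicate 1 and 0.0566 without spt16-1 replicate 3, and its count between 19 and 6. Members of an array share its RNA and its scaling, so these shares describe the arrays and carry no test. Both mutants were set against the same 3 wild-type arrays.

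The array means show how much of this lay between replicate pools. Averaged over plastid members, the deviation from the 9-array mean was -0.026, 0.007 and -0.036 in ssrp1-2, 0.048, -0.001 and -0.035 in spt16-1, and -0.047, 0.054 and 0.037 in wild type. The lowest and the highest of the 9 arrays were thus both wild type, and the genotypes overlapped. Averaged over mitochondrial members it was -0.08, -0.035 and -0.041 in ssrp1-2, 0.102, 0.013 and -0.061 in spt16-1, and 0.045, 0 and 0.056 in wild type. The 3 ssrp1-2 arrays lay below the 3 wild-type arrays, while the spt16-1 arrays spanned both groups.

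**Figure D1:**
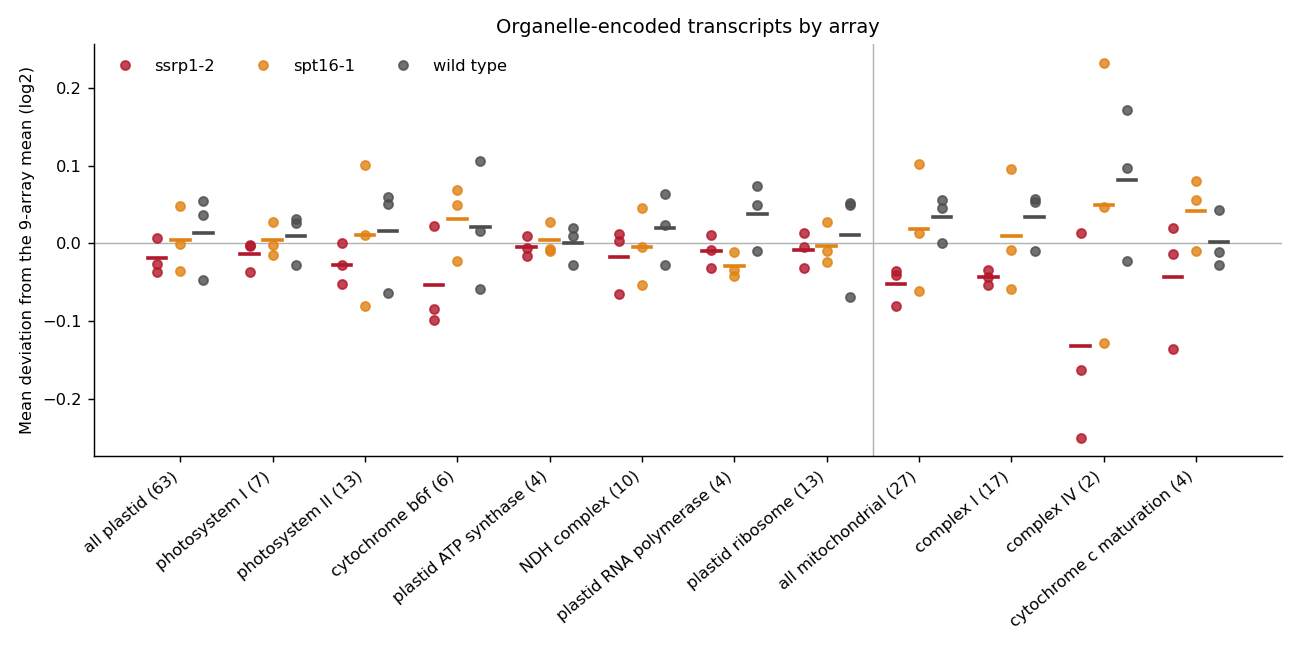
Mean deviation of each group of members from its 9-array mean (log2), 1 point per array and a bar at the genotype mean, for ssrp1-2, spt16-1 and wild type, with the number of probe sets in brackets and mitochondrial groups right of the line. Genotypes overlap in most plastid groups, and the 3 ssrp1-2 arrays lie below the 3 wild-type arrays for all mitochondrial members (-0.035 and lower, against 0 and higher).

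The photosystem II genes encode the core and small subunits of the complex that splits water. The value of psbA, the gene of the rapidly turned over D1 protein, was 13.78, 13.78 and 13.75 in ssrp1-2, 13.84, 13.82 and 13.78 in spt16-1, and 13.74, 13.80 and 13.77 in wild type. The core antenna gene psbB had 13.84, 13.84 and 13.82 in ssrp1-2, 13.85, 13.84 and 13.84 in spt16-1, and 13.81, 13.84 and 13.86 in wild type. In both genes the genotypes overlapped. Over the 13 members the median difference was -0.0124 in ssrp1-2 and 0.0135 in spt16-1.

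The most negative plastid differences from wild type, -0.28 for psbN in spt16-1 and -0.28 for psbT in ssrp1-2, stood in small photosystem II genes. psbN, whose product is needed to assemble photosystem II in tobacco and which lies on the strand opposite to the psbB operon, had 11.69, 11.82 and 11.85 in ssrp1-2, 11.80, 11.81 and 11.51 in spt16-1, and 11.97, 11.95 and 12.02 in wild type. All 6 mutant arrays were below all 3 wild-type arrays. The differences were -0.20 in ssrp1-2 (95% interval -0.41 to 0.02, adjusted p = 0.39) and -0.28 in spt16-1 (-0.49 to -0.06, adjusted p = 0.246). psbT, the gene of a small photosystem II subunit in that operon, had 10.71, 11.22 and 10.86 in ssrp1-2, 11.75, 11.26 and 10.76 in spt16-1, and 10.57, 11.54 and 11.52 in wild type. The wild-type arrays alone spanned almost the whole range, and the differences of -0.28 and 0.05 had adjusted p of 0.736 and 0.973. Against spt16-1, psbT in ssrp1-2 had -0.33.

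None of the 7 photosystem I members passed. psaB, one of the genes of the reaction centre pair, had 13.86, 13.81 and 13.79 in ssrp1-2, 13.92, 13.87 and 13.83 in spt16-1, and 13.79, 13.89 and 13.85 in wild type. Over the 7 members the differences ran between -0.08 (psaI) and 0.01 in ssrp1-2 and between -0.04 and 0.03 in spt16-1. The assembly factor genes ycf3 and ycf4 had 0.00 and -0.05 in ssrp1-2 and 0.01 and -0.02 in spt16-1.

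In the cytochrome b6f complex, which links the photosystems, the neighbouring small-subunit genes petL and petG stood apart from the other 4. petL had 12.12, 12.34 and 12.10 in ssrp1-2, 12.41, 12.44 and 12.30 in spt16-1, and 12.22, 12.57 and 12.39 in wild type. petG had 12.62, 12.98 and 12.68 in ssrp1-2, 12.88, 13.19 and 12.80 in spt16-1, and 12.80, 13.24 and 12.91 in wild type. In petL and petG the ssrp1-2 means were the lowest, but single ssrp1-2 arrays reached into the range of the other genotypes. The differences of ssrp1-2 were -0.21 and -0.22 against wild type (adjusted p = 0.43 and 0.564) and -0.20 and -0.19 against spt16-1 (adjusted p = 0.509 and 0.669). In petL and petG replicate 2 was the highest array of each genotype. With the replicate number as a block, limma adjusted p of petG in ssrp1-2 was 0.235 against wild type and 0.373 against spt16-1. Both were the lowest of the 19 alternatives. The differences moved when 1 array was left out, in fits that do not match replicate numbers. Against wild type, petL had -0.12 without wild-type replicate 2 and -0.29 without wild-type replicate 1, and petG had -0.09 without wild-type replicate 2 and -0.33 without ssrp1-2 replicate 2. Against spt16-1, petG had -0.08 without spt16-1 replicate 2 and -0.30 without ssrp1-2 replicate 2. petA, petB, petD and petN, the genes of cytochrome f, cytochrome b6, subunit IV and a small subunit, had differences between -0.02 and 0.06 in the mutants against wild type. petA had 13.16, 13.21 and 13.20 in ssrp1-2, 13.32, 13.20 and 13.21 in spt16-1, and 13.14, 13.22 and 13.21 in wild type. petN, the brightest of the 6, had 13.61, 13.67 and 13.60 in ssrp1-2, 13.65, 13.63 and 13.66 in spt16-1, and 13.65, 13.63 and 13.64 in wild type.

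The chloroplast ATP synthase genes hardly varied. atpA, the gene of the alpha subunit, had 13.50 in all 3 ssrp1-2 arrays, 13.53, 13.50 and 13.50 in spt16-1, and 13.49, 13.51 and 13.52 in wild type. atpH, the gene of the membrane ring subunit, had 13.99, 14 and 13.94 in ssrp1-2, 13.99, 13.97 and 13.99 in spt16-1, and 13.96, 14 and 13.99 in wild type. All 4 differences lay within 0.01 of 0 in each mutant. rbcL, the gene of the Rubisco large subunit that fixes carbon, had 13.84, 13.80 and 13.86 in ssrp1-2, 13.84, 13.85 and 13.84 in spt16-1, and 13.82, 13.81 and 13.84 in wild type, with differences of 0.01 and 0.02.

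The NDH complex carries cyclic electron flow around photosystem I. Its 10 members had a median difference of -0.0351 in ssrp1-2 and -0.0163 in spt16-1. ndhD, a membrane-arm subunit gene, had 12.90, 12.92 and 12.81 in ssrp1-2, 13.01, 12.93 and 12.83 in spt16-1, and 12.94, 13.02 and 12.96 in wild type. Its ssrp1-2 arrays were all below wild type, by -0.09 on average (adjusted p = 0.608). ndhC, also of the membrane arm, had 13.45, 13.48 and 13.42 in ssrp1-2, 13.52, 13.48 and 13.43 in spt16-1, and 13.44, 13.52 and 13.50 in wild type. ndhH, a subunit gene of the peripheral arm, had 12.69, 12.73 and 12.65 in ssrp1-2, 12.65, 12.59 and 12.61 in spt16-1, and 12.65, 12.67 and 12.71 in wild type. Its ssrp1-2 mean was 0.07 above spt16-1 (adjusted p = 0.696).

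The plastid RNA polymerase genes bear on how the other plastid genes are transcribed. rpoC2 had 12.63, 12.62 and 12.57 in ssrp1-2, 12.55, 12.54 and 12.57 in spt16-1, and 12.60, 12.64 and 12.64 in wild type. Its spt16-1 arrays were all below wild type, by -0.07 on average (adjusted p = 0.67). rpoC1 had 11.87, 11.91 and 11.80 in ssrp1-2, 11.91, 11.84 and 11.91 in spt16-1, and 11.90, 12 and 12.01 in wild type, with differences of -0.11 and -0.08 (adjusted p = 0.501 and 0.673). rpoB had 12.34, 12.37 and 12.36 in ssrp1-2 and 12.28, 12.28 and 12.34 in spt16-1, against 12.33, 12.38 and 12.35 in wild type. For rpoB the ssrp1-2 and spt16-1 arrays met at 12.34 after rounding and did not overlap, and ssrp1-2 was 0.06 higher (adjusted p = 0.755). rpoA, which is transcribed with ribosomal protein genes, had 12.60, 12.63 and 12.64 in ssrp1-2, 12.70, 12.65 and 12.54 in spt16-1, and 12.61, 12.66 and 12.79 in wild type. In spt16-1 all 4 polymerase genes had a difference below 0, between -0.08 and -0.05.

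Plastid genes were also grouped by the polymerase that transcribes them. The 25 photosynthesis genes listed as read by the plastid-encoded polymerase had a median of -0.0124 in ssrp1-2 and 0.0075 in spt16-1, with 18 and 8 of them below 0. The 4 genes listed as read by the nuclear-encoded polymerase, which are rpoB, rpoC1, rpoC2 and accD, had -0.0364 and -0.0639, with 3 and 4 below 0. The difference between the groups was not tested. In a plant that lacks plastid polymerase activity the first group is known to drop and the second to accumulate. No gene of either group passed the test here.

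Plastid ribosomal protein genes had medians of -0.0217 in ssrp1-2 and -0.0129 in spt16-1 over 13 members. rpl20 had 13.59, 13.60 and 13.58 in ssrp1-2, the same rounded values of 13.59, 13.60 and 13.58 in spt16-1, and 13.61, 13.63 and 13.63 in wild type. All its mutant arrays were below wild type, yet the difference was -0.03 in each mutant (adjusted p = 0.853 and 0.884). Its SD within genotypes, 0.0104, was the lowest of all plastid members. In the unmoderated test its adjusted p was 0.203 in ssrp1-2 and 0.226 in spt16-1, each the lowest of the 19 alternatives. rpl36 had 13, 12.95 and 13.05 in ssrp1-2, 12.88, 12.96 and 12.92 in spt16-1, and 13.03, 12.97 and 12.98 in wild type. Its spt16-1 arrays were below wild type by -0.07 (adjusted p = 0.707) and ssrp1-2 was 0.08 above spt16-1 (adjusted p = 0.657). rps18 had 10.83, 10.87 and 11.06 in ssrp1-2, 10.83, 10.78 and 11.02 in spt16-1, and 10.77, 10.82 and 11 in wild type. rps16 had 10.79, 10.78 and 10.79 in ssrp1-2, 10.78, 10.62 and 10.88 in spt16-1, and 10.57, 10.87 and 10.78 in wild type. These were the most positive plastid differences of ssrp1-2 from wild type, 0.05 and 0.04, each with overlapping arrays.

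Of the remaining plastid genes, accD, which encodes a subunit of acetyl-CoA carboxylase for fatty acid synthesis, had 12.26, 12.27 and 12.25 in ssrp1-2, 12.36, 12.28 and 12.27 in spt16-1, and 12.27, 12.35 and 12.31 in wild type. The ssrp1-2 arrays were below both other genotypes, though they meet at 12.27 after rounding, with differences of -0.05 from each. clpP, the gene of a protease subunit, had 13.15, 13.16 and 13.14 in ssrp1-2, 13.19, 13.20 and 13.18 in spt16-1, and 13.15, 13.18 and 13.23 in wild type. matK, the gene of the plastid intron maturase, had 13.56, 13.55 and 13.49 in ssrp1-2, 13.60, 13.55 and 13.50 in spt16-1, and 13.51, 13.57 and 13.56 in wild type. The envelope protein gene cemA and the cytochrome assembly gene ccsA had -0.03 and 0.03 in ssrp1-2 and -0.02 and 0.05 in spt16-1.

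**Figure D2:**
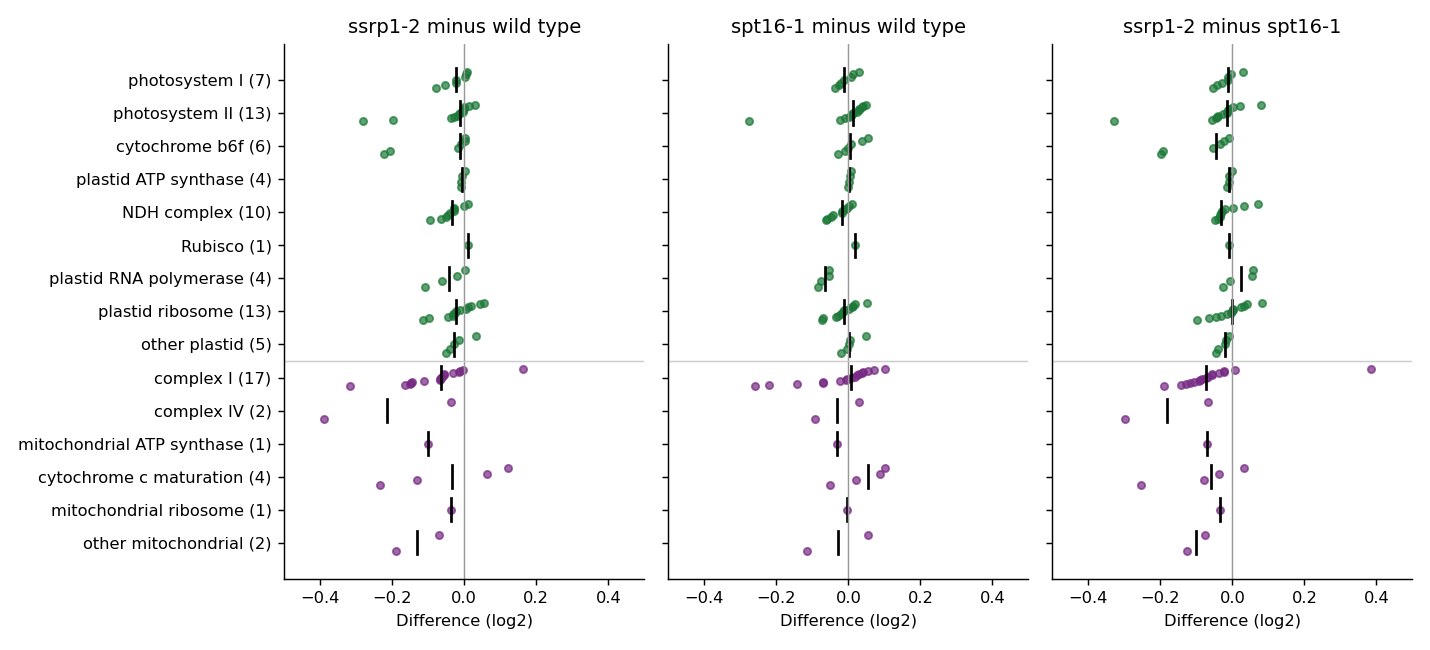
Log2 difference of each member for ssrp1-2 minus wild type, spt16-1 minus wild type and ssrp1-2 minus spt16-1, 1 point per probe set with plastid groups in green, mitochondrial groups in purple and a black bar at the group median. Most plastid points lie within 0.1 of 0 outside psbT, psbN, petL and petG, and 24 of 27 mitochondrial points lie below 0 in the left and right panels.

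Genes of 1 plastid operon are cut from shared transcripts, and their probe sets mostly differed little. In the atpI operon 4 genes had differences between -0.01 and 0.00 in ssrp1-2 and between 0.00 and 0.01 in spt16-1. In the psbE operon 4 genes had -0.03 to 0.03 and 0.00 to 0.03. In the ndhH operon 7 genes had -0.09 to 0.01 and -0.06 to -0.01, with 6 of 7 and 7 of 7 below 0. rpl33 and rps18, which also share an operon, had -0.11 and 0.05 in ssrp1-2 and -0.07 and 0.01 in spt16-1. The psbB operon spread more widely, with 5 genes between -0.28 and 0.00 in ssrp1-2, where psbT alone made the lower end. petB, petD, psbB and psbH of that operon were each within 0.01 of 0 in ssrp1-2, while psbN on the opposite strand had -0.20.

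Among plastid members the arrays of ssrp1-2 and wild type did not overlap in 4 of 63 (6.35%), all lower in ssrp1-2: accD, rpl20, psbN and ndhD. The share over all probe sets was 17.5%, and 8.18% for lower ones. The arrays of spt16-1 and wild type did not overlap in 4 of 63 (6.35%), all lower in spt16-1: rpoC2, rpl20, psbN and rpl36, against 16.9% of all probe sets and 8.36% for lower ones. ssrp1-2 and spt16-1 did not overlap in 4 of 63, with accD, psbF and clpP lower and rpoB higher in ssrp1-2, against 15.4% of all probe sets and 7.16% for lower ones. These shares were below the background in every comparison.

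Of the 27 mitochondrial members, 10 (37%) had ssrp1-2 arrays clear of wild type, against 17.5% of all probe sets, and 9 of them were lower, against 8.18%. Several of these probe sets read the same gene, so they are not independent of each other. The lower ones were 2 nad1 and 2 nad2 probe sets, nad4, nad4L, ccb206, ccb382 and orfX, and ccb203 was higher. In spt16-1 the count was 3 of 27 (11.1%, against 16.9%), with 2 nad1 probe sets lower and ccb452 higher. Between ssrp1-2 and spt16-1 it was 3 of 27 (11.1%, against 15.4%), with ccb382, ccb452 and 1 nad2 probe set lower in ssrp1-2.

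The clearest case was nad1, the gene of a core membrane subunit of respiratory complex I that is assembled from separate transcripts by trans-splicing. Its probe set 13545385 had 9.14, 9.23 and 9.16 in ssrp1-2, 9.28, 9.28 and 9.13 in spt16-1, and 9.52, 9.43 and 9.52 in wild type. All 6 mutant arrays were below all 3 wild-type arrays. The difference was -0.32 in ssrp1-2 (95% interval -0.48 to -0.15, adjusted p = 0.059) and -0.26 in spt16-1 (-0.42 to -0.10, adjusted p = 0.135), so it did not pass in either mutant. When the test let the assumed spread follow the level of a probe set, adjusted p was 0.00813 in ssrp1-2 and 0.025 in spt16-1, and it was 0.0347 in ssrp1-2 when the 25% of probe sets with the lowest means were left out. Over the 19 alternatives the difference in ssrp1-2 stayed between -0.35 and -0.30, with adjusted p between 0.00813 and 0.17.

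A second nad1 probe set had the same order of genotypes. Probe set 13545387 had 11.36, 11.22 and 11.30 in ssrp1-2, 11.35, 11.36 and 11.23 in spt16-1, and 11.54, 11.44 and 11.39 in wild type, with differences of -0.17 and -0.14 (adjusted p = 0.352 and 0.483). Probe set 13545368 had this order too, with differences of -0.14 and -0.07, but its arrays overlapped between each mutant and wild type. The other 4 had other orders. In 13545383 the differences were -0.01 and 0.05, and in 13545379, of low signal, -0.06 and -0.07. 13545391 had 7.04, 6.81 and 7.03 in ssrp1-2, 7.08, 7.17 and 6.96 in spt16-1, and 7.11, 6.79 and 7.18 in wild type, with -0.07 and 0.04. 13545389, also of low signal, had 4.94, 4.80 and 4.63 in ssrp1-2, 4.63, 3.95 and 4.63 in spt16-1, and 4.56, 4.63 and 4.68 in wild type, with 0.16 and -0.22. nad1 probe sets thus disagreed in sign and size, and the annotation used here does not say which exon or intron each one reads.

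nad2 and nad5, also complex I genes joined by trans-splicing, had smaller differences than nad1 13545385. The nad2 probe set 13545266 had 11.54, 11.49 and 11.53 in ssrp1-2, 11.78, 11.71 and 11.65 in spt16-1, and 11.64, 11.64 and 11.73 in wild type. The ssrp1-2 arrays were below both other genotypes, by -0.15 from wild type (adjusted p = 0.339) and by -0.19 from spt16-1 (adjusted p = 0.293). The other nad2 probe sets had -0.15 (13545397) and 0.00 (13545401) against wild type, and both nad5 probe sets had -0.06. nad4, nad4L, nad6, nad7 and nad9, further complex I subunit genes, had -0.11, -0.07, -0.06, -0.03 and -0.02 in ssrp1-2. In spt16-1 they had -0.02, 0.03, 0.07, 0.01 and 0.10. nad4L, the brightest complex I member, had 12.80, 12.77 and 12.71 in ssrp1-2, 12.94, 12.85 and 12.77 in spt16-1, and 12.83, 12.82 and 12.83 in wild type. nad9 had 11.28, 11.32 and 11.22 in ssrp1-2, 11.50, 11.40 and 11.27 in spt16-1, and 11.27, 11.32 and 11.28 in wild type. In nad4L the ssrp1-2 arrays lay below wild type, while in nad9 all 3 genotypes overlapped. Of the 17 complex I probe sets 16 had a difference below 0 in ssrp1-2 and 8 in spt16-1, with medians of -0.0638 and 0.00754. Without nad1, 18 of the other 20 mitochondrial probe sets had a difference below 0 in ssrp1-2 and 8 in spt16-1.

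cox1 and cox2 encode subunits of complex IV, the terminal oxidase. cox1 had 12.85, 12.94 and 12.88 in ssrp1-2, 12.94, 12.96 and 12.98 in spt16-1, and 12.94, 12.92 and 12.92 in wild type. cox2 had 9.67, 10.10 and 9.81 in ssrp1-2, 10.54, 10.15 and 9.78 in spt16-1, and 10.03, 10.44 and 10.29 in wild type. The cox2 difference of -0.39 in ssrp1-2 was the most negative of all members, but its arrays overlapped, its 95% interval ran from -0.84 to 0.06 and its adjusted p was 0.423.

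The ccb genes encode the machinery that attaches haem to c-type cytochromes. Their differences had both signs. ccb382 had 8.67, 8.85 and 8.92 in ssrp1-2, 9.02, 9.11 and 9.07 in spt16-1, and 9.11, 9.04 and 8.99 in wild type. Its ssrp1-2 arrays were below both other genotypes, by -0.23 from wild type (adjusted p = 0.227) and by -0.25 from spt16-1 (adjusted p = 0.251). ccb206 had 7.32, 7.61 and 7.61 in ssrp1-2, 7.71, 7.65 and 7.42 in spt16-1, and 7.65, 7.64 and 7.64 in wild type. Its ssrp1-2 difference from wild type was -0.13 (adjusted p = 0.625), and -0.03 without ssrp1-2 replicate 1. ccb203 had 10.27, 10.31 and 10.33 in ssrp1-2, 10.27, 10.32 and 10.22 in spt16-1, and 10.24, 10.09 and 10.22 in wild type. ccb452 had 11.88, 11.86 and 11.91 in ssrp1-2, 11.91, 11.92 and 11.93 in spt16-1, and 11.86, 11.81 and 11.79 in wild type. For ccb203 and ccb452 the mutant means were the higher ones, by 0.12 and 0.06 in ssrp1-2 and by 0.09 and 0.10 in spt16-1, with adjusted p of 0.479 or more.

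The other mitochondrial members were closer to wild type in spt16-1 than in ssrp1-2 by their values, and none passed. orfX, which encodes a protein translocase of the twin-arginine type, had 9.65, 9.60 and 9.71 in ssrp1-2, 9.87, 9.75 and 9.56 in spt16-1, and 9.90, 9.78 and 9.85 in wild type, with -0.19 and -0.11 (adjusted p = 0.373 and 0.663). atp1, the ATP synthase alpha subunit gene, had 10.98, 11.06 and 11.15 in ssrp1-2, 11.20, 11.14 and 11.06 in spt16-1, and 11.12, 11.14 and 11.23 in wild type. matR, the gene of an intron maturase that lies within a nad1 intron, had -0.07 and 0.06. rpl2, a ribosomal protein gene, had 11.99, 11.98 and 12.10 in ssrp1-2, 12.06, 12.06 and 12.05 in spt16-1, and 12.11, 12 and 12.08 in wild type, with -0.04 and 0.00.

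**Figure D3:**
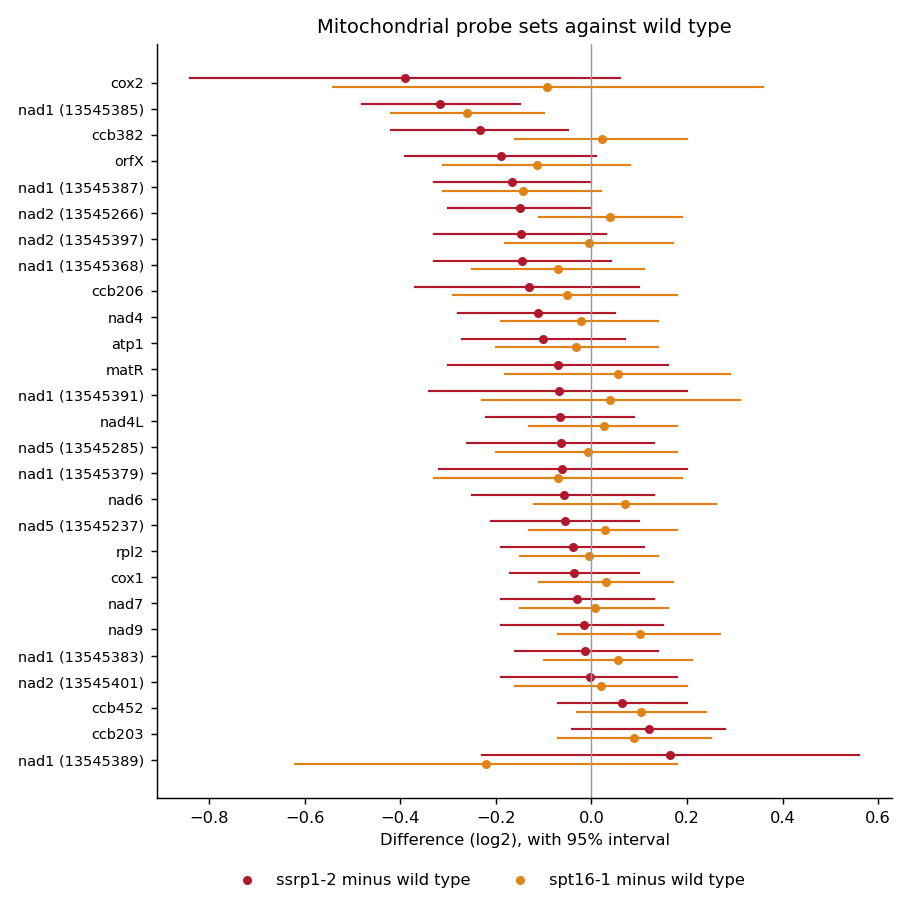
Log2 difference from wild type of the 27 mitochondrial probe sets with its 95% interval, in ssrp1-2 (red) and spt16-1 (orange), ordered by the ssrp1-2 difference, with probe set numbers for genes that have several. The intervals of nad1 13545385 lie below 0 in both mutants (-0.48 to -0.15 and -0.42 to -0.10). In ssrp1-2 those of ccb382 (-0.42 to -0.05) and nad2 13545266 (-0.30 to just below 0) do so too. The other nad1 probe sets are spread over the whole order.

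**Figure D4:**
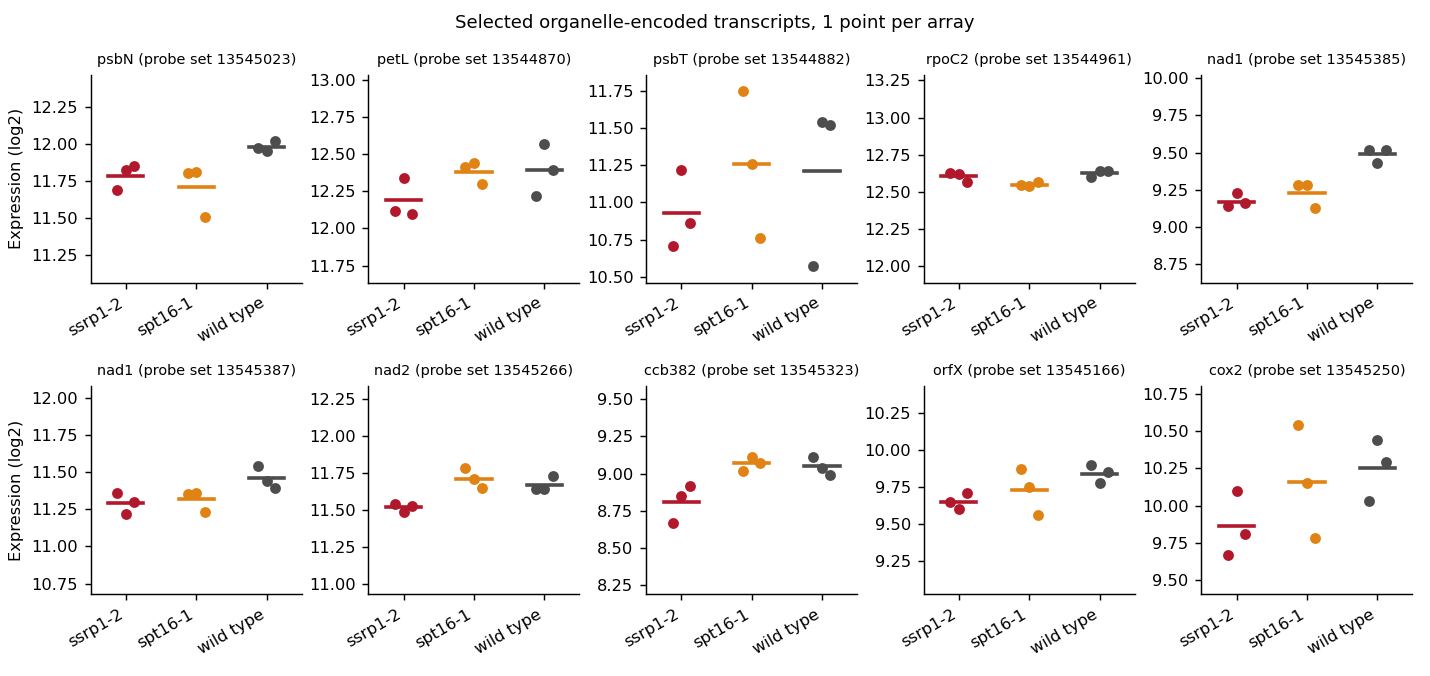
Log2 expression of 10 selected members on each array of ssrp1-2, spt16-1 and wild type, with a bar at the genotype mean and the same span of 1.4 log2 units in every panel. In psbN and in nad1 13545385 and 13545387 the 6 mutant arrays lie below the 3 wild-type arrays, while psbT and cox2 spread widely within each genotype.

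ssrp1-2 and spt16-1 were also tested against each other. Plastid members had a median difference of -0.0144 and mitochondrial members of -0.0745, beside 0.00673 over all probe sets. Of the members, 48 of 63 and 24 of 27 had a difference below 0, against 48.2% of all probe sets. The mitochondrial median moved to -0.0352 without spt16-1 replicate 1, the array with the highest mitochondrial mean, and to -0.12 without spt16-1 replicate 3. nad1 13545389, a probe set of low signal, had the most positive difference, 0.38 with an adjusted p of 0.43.

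The 95% intervals show which sizes of difference in the normalized values the moderated spread between arrays leaves possible. They do not cover compression of signals near the top of the scale or a shared shift reduced by the normalization. In ssrp1-2 against wild type 61 of 63 plastid and 25 of 27 mitochondrial intervals lay within 0.5 log2 units of 0, and 52 and 10 lay within 0.25. In spt16-1 against wild type the counts were 62 and 25 within 0.5, and 58 and 15 within 0.25. Half-widths had a median of 0.142 for plastid and 0.17 for mitochondrial members, against 0.25 over all probe sets. No plastid half-width was under 0.128, though the lowest plastid SD within genotypes was 0.0104 (rpl20), because moderation raises such small spreads. With the spread tied to level, the medians were 0.0862 and 0.122. These margins were chosen after the values were seen, and the intervals are per probe set, not adjusted for the number of members.

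Replicate arrays agreed closely in these transcripts. The SD within genotypes had a median of 0.0421 for plastid and 0.0736 for mitochondrial members, against 0.141 over all probe sets. Bright probe sets in general varied less. Above a level of 12 the median SD was 0.0406 for the 58 plastid members and 0.0497 for the 118 probe sets that are no members. In 59 of 63 plastid and 22 of 27 mitochondrial members, the arrays of at least 1 genotype spanned a wider range than the 3 genotype means did. Single arrays spread more than means of 3 arrays do, so high counts arise even without special members. The share over all probe sets was not computed, and nothing is concluded from these counts.

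The plastid members that varied most were mostly short genes, and all of them lay below the plastid median level of 13.12. Of 63 plastid members, 8 had an SD above 0.1: psbT, petG, rpl32, petL, rps18, rps16, psbN and psbM. The 16 plastid genes under 200 bases in RefSeq included 6 of these 8 and had a median SD of 0.0601. The 47 longer ones included 2 and had a median of 0.0401. Across plastid members, Spearman's rho of SD was -0.61 with level and -0.29 with gene length. These are descriptions over 63 genes that share the same arrays. psbT had the largest SD, 0.457, followed by petG with 0.209 and rpl32 with 0.195. rpl32 had 11.93, 12.23 and 12.04 in ssrp1-2, 12.31, 12.11 and 12.06 in spt16-1, and 11.80, 12.28 and 12.25 in wild type.

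**Figure D5:**
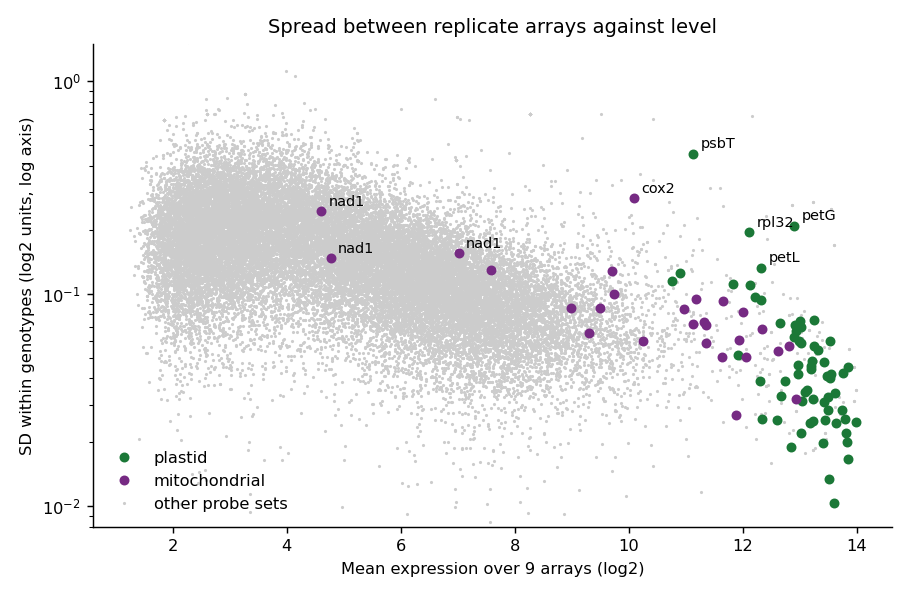
SD within genotypes (log2 units, log axis) against the mean expression over 9 arrays (log2) for plastid members, mitochondrial members and all other probe sets. Plastid members lie at the bright, low-spread end (median SD 0.0421), and the labelled psbT, cox2, petG, rpl32 and petL lie above it.

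Nuclear genes that serve the organelles were covered thinly, since many of them had no probe set with 1 annotated gene. Of 20 listed light-harvesting and Rubisco small subunit genes 3 were measured and 0 passed, with medians of -0.197 in ssrp1-2 and -0.0908 in spt16-1. LHCB4.2, a minor antenna protein gene of photosystem II, had 9.66, 9.64 and 9.72 in ssrp1-2, 9.70, 9.65 and 9.67 in spt16-1, and 9.80, 9.91 and 9.90 in wild type. Both mutants were below wild type on every array, by -0.20 each (adjusted p = 0.191 and 0.216). Its relative LHCB4.1 had -0.20 and -0.09 (adjusted p = 0.275 and 0.697), and LHCB4.3, of low signal, had 0.13 and 0.04 (adjusted p = 0.75 and 0.954). Of 20 nuclear photosystem subunit genes 4 were measured (PSBY, PSBW, PSAE-1 and PSAN), with 0 passing and medians of 0.0054 and 0.0482. They had -0.10, 0.04, -0.03 and 0.12 in ssrp1-2 and -0.14, 0.06, 0.05 and 0.04 in spt16-1.

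None of the 6 sigma factor genes, 11 genes of polymerase-associated proteins or 5 MORF genes of RNA editing was measured here. Of 3 phage-type polymerase genes 1 was measured. AT5G15700, which encodes the polymerase found in both organelles, had 5.11 ± 0.14 in ssrp1-2, 5.43 ± 0.18 in spt16-1 and 5.19 ± 0.08 in wild type (SD, n = 3). Its differences from wild type were -0.09 and 0.24, with limma adjusted p of 0.779 and 0.426.

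Of 10 genes listed for alternative respiration and mitochondrial stress 5 were measured, and 1 rose in spt16-1. AT2G21640, a mitochondrial protein gene known to respond to oxidative stress, had 4.16, 4.77 and 4.71 in ssrp1-2, 5.53, 5.39 and 5.70 in spt16-1, and 4.57, 4.51 and 4.17 in wild type. The spt16-1 arrays were clear of both other genotypes. Signal was low in those 2, with means of 4.55 in ssrp1-2 and 4.42 in wild type, below the array medians of 4.95 to 4.98. The increase was 1.12 on the log2 scale (95% interval 0.72 to 1.52, adjusted p = 0.0152), while ssrp1-2 had 0.13 (adjusted p = 0.789). The call was lost without spt16-1 replicate 1 (adjusted p = 0.0576) or 3 (0.0646) or wild-type replicate 3 (0.0564), with the replicate number as a block (0.0524) and in the unmoderated test (0.072). NDB2 and NDB4, genes of external alternative NADH dehydrogenases, had -0.39 and -0.01 in ssrp1-2 and -0.11 and 0.39 in spt16-1, with adjusted p of 0.12 or more. AT5G09570 and AT5G64400 had 0.26 and 0.23 in ssrp1-2 and -0.02 and 0.21 in spt16-1, with adjusted p of 0.276 or more.

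Markers were set beside the tissue label. Of the light-harvesting genes, LHCB4.1 stood at 10.05 in ssrp1-2, 10.16 in spt16-1 and 10.25 in wild type, LHCB4.2 at 9.67, 9.67 and 9.87, and LHCB4.3 at 3.74, 3.64 and 3.61. The root hair gene EXPA7 stood at 3.35, 3.34 and 3.44, near the lower quartile of all probe sets at 3.13, and the measured pollen marker at 2.04, 1.95 and 1.86. PYK10, a root-rich gene that is also active in seedling cotyledons and hypocotyls, had 10.84, 11.31 and 11.21, with -0.38 in ssrp1-2 against wild type (adjusted p = 0.199) and -0.47 against spt16-1 (adjusted p = 0.163). Of the listed markers, 2 of 5 for root, 1 of 3 for pollen and 0 of 3 for seed were measured. Their part in the organelle values was not tested.

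Likeness to the organelle means across the 9 arrays was measured by Pearson's r with the mean deviation of each genome's members, among probe sets with 1 annotated gene that are no members. For the plastid mean the closest were AT3G46360 (0.966), AT2G12905 (0.949) and AT5G07600 (0.916). For the mitochondrial mean the closest were AT5G35110 (0.941), AT1G73050 (0.897) and AT5G23950 (0.894). They were picked for these values, which only describe these arrays.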

How the data were processed

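The deposited values are log2 expression per probe set and array, which per the submitters' processing notes the authors made with RMA and Affymetrix Expression Console 1.3. That method corrects background, gives all arrays 1 common distribution and sums up the probes, so a change in total RNA would not show. No scaling or filter was added. Array medians ran between 4.95 and 4.98. The array's genome build is not stated, and no coordinates are given.

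Plastid genes were recognised through RefSeq gene IDs and mitochondrial genes through their symbols and synonyms in RefSeq. Probe sets with several annotated genes were left out. The members and gene lists were chosen with earlier results of these data known.

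All 9 arrays entered 1 limma model (version 3.58.1, R 4.3.3, moderated two-sided test), with 6 residual and 2.76 prior degrees of freedom and Benjamini-Hochberg adjustment over all 28501 probe sets of a comparison. The test was checked on simulated data. The SD given without ± is pooled within genotypes. Permuting 3 against 3 arrays exactly gives no p under 0.1, so it was not used. The number of arrays limits the precision.

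Genes given with each array's value followed a rule: per genome and comparison the smallest p-values and the largest differences, the brightest member of each complex, and the largest and smallest spread. Members whose arrays do not overlap are named where there were 10 or fewer, and nuclear genes are those of the lists with the smallest p-values. A few further members are given for their role, chosen after their values were seen. Alternatives tried were an intensity trend, a replicate block, robust and unmoderated tests, array weights, 3 other scalings, a filter on low values, fits of 2 genotypes, other choices of members and leaving out each array.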

Additional observations from a re-analysis of the deposited data

Results flagged for a closer look

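The difference between the mutants in AT2G21640, a nuclear gene of a mitochondrial protein, differed under a direct test: ssrp1-2 was lower than spt16-1 by 0.99 on the log2 scale (log2 difference -0.99, 95% interval -1.39 to -0.59, adjusted p = 0.0447 by limma). All 3 ssrp1-2 arrays were below all 3 spt16-1 arrays. Signal was low in ssrp1-2, with a mean of 4.55, below the array medians of 4.95 to 4.98. The adjusted p ran between 0.0195 and 0.154 over 19 alternatives, and the call was lost in 12 of them, among them leaving out any 1 of the 9 arrays.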

How the results depend on the processing

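The count of plastid members that passed stayed at 0 under all alternatives, and that of mitochondrial members at 0 except for nad1 13545385. In ssrp1-2 against wild type 1 of 27 passed with the intensity trend, beside 4.18% of all probe sets. Without the lowest 25% of probe sets 1 of 27 passed too, beside 4.45% of those tested. In spt16-1 against wild type 1 of 27 passed with the intensity trend, beside 3.59% of all probe sets. The median differences of plastid and of mitochondrial members moved by less than 1 SD between arrays under every alternative. That SD was 0.0417 for plastid and 0.0522 for mitochondrial members. It is a wide margin, larger than every plastid median and the mitochondrial one of spt16-1 against wild type. Some medians close to 0 changed sign, as did the mitochondrial one of spt16-1 without replicate 1 (-0.0393). Over all probe sets, ssrp1-2 against wild type gave 1190 with the intensity trend, 482 unmoderated, 399 with the 2 genotypes alone and 405 to 625 with an array left out. spt16-1 against wild type gave 1024 with the intensity trend, 271 with the 2 genotypes alone and 293 to 479 with an array left out. ssrp1-2 against spt16-1 gave 497 with the intensity trend, 123 unmoderated, 80 with the 2 genotypes alone and 91 to 167 with an array left out. The replicate block gave 503, 380 and 117 in these 3 comparisons. Over all probe sets, deviations of same-numbered arrays correlated between -0.135 and 0.069, against -0.112 to 0.085 for other numbers. No pairing by number showed there. Over the 90 members alone these ranges were -0.57 to 0.729 and -0.694 to 0.581. Same-numbered ssrp1-2 and wild-type arrays had 0.444, 0.729 and 0.141 there, but spt16-1 and wild-type arrays -0.57, -0.016 and -0.351. The cause of these shifts was not tested. The intensity trend for named members, the alternatives for AT2G21640 and the counts below 0 with an array left out were chosen after seeing the data. Signal over background was not assessed, because no detection calls were used.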
